A study of Danio rerio with 8 samples.

Results

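The Hox genes of the zebrafish embryo are described here in 4 libraries from embryos treated with the lipid 7,17-diHDPAn-3 and 4 libraries from control embryos. Every row of the count table whose gene symbol is hox followed by a, b, c or d and a number was taken, with case ignored. This gave 48 of 32020 rows, and 46 of them held at least 10 counts summed over the 8 libraries and were compared between the groups. The rows were picked by name alone, though the Hox set itself was chosen with earlier results of these data known.

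The treated libraries are numbered 5 to 8 and the control libraries 1 to 4. 7,17-diHDPAn-3 is made from docosapentaenoic acid, an omega-3 fatty acid, and carries a pair of hydroxyl groups. All 8 libraries are labelled as embryo tissue, with erythrocytes and their progenitors as the cell type, and the design text names the AB wild-type strain and the lines Tg(gata1: Dsred) and Tg(CD41:GFP). Every library name holds the tag gata_1, and that of control 4 also 2b, which no label explains. The tag resembles the name of the gata1 line, but the sources used here do not state which strain or line gave these RNA samples, whether cells were sorted, how many embryos went into a sample, or at what age they were collected. The design text describes a screen at 1.5 µM from 11 to 36 hours post fertilization and a dose search from 1 to 1.75 µM, without saying which dose or hours belong to these libraries. No label ties a library to a clutch of its own, so the p-values reflect how far these samples vary, and that variation may be technical.

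Hox genes encode homeodomain transcription factors that give cells of the trunk and hindbrain their position along the head-to-tail axis. They lie in clusters, and their order in a cluster follows the order in which they act along the axis. Genes of low paralog group number act in the hindbrain and pharyngeal arches, genes of middle number in the anterior trunk, and genes of high number in the posterior trunk, tail and fins. Zebrafish kept extra clusters from the genome duplication of teleost fishes, so most of the names carry a final a or b for the copy. In vertebrates, Hox proteins bind DNA together with cofactors of the PBX and MEIS families, retinoic acid and caudal (Cdx) factors set where Hox genes are switched on, and Polycomb and trithorax proteins keep them off or on. Hox genes also act in blood formation: in zebrafish, hoxb7a and hoxa9a restore blood cells in embryos that lack cdx4.

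Total counts ran from 2502636 to 4794081 per library, so 1 count was worth 0.210 to 0.419 CPM (counts scaled to a common library size, with the TMM factors of edgeR). The Hox rows together took 0.0379% to 0.0613% of all counts, or 1188 to 2224 counts per library. 33 of the 48 rows carry a human-style name, such as HOXB3, and 15 a zebrafish name. By elimination against the Hox genes of the RefSeq annotation (assembly GRCz12tu), 23 of the human-style rows were paired with 1 zebrafish gene, and 10 rows that share 5 names (HOXA11, HOXB5, HOXC6, HOXC12 and HOXC13) could not be told apart as a or b copy and are given with their Ensembl identifiers. CPM values are not divided by transcript length, since no transcript lengths were used here, so values are compared between libraries rather than between genes. Transcript length still enters the naming of rows by mean CPM and the sums and shares of paralog groups. Some counts are uncertain for a further reason: in the RefSeq annotation hoxb3a overlaps 3 other Hox genes (hoxb4a, hoxb5a and hoxb6a), hoxc3a overlaps 5, hoxa3a and hoxb1b overlap 2 each and hoxd3a overlaps 1, and the sources used here do not say how reads were shared between overlapping genes.

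The libraries held transcripts of many tissues besides red cells. The 17 rows of the red cell list summed to between 3345 and 8137 CPM in treated and between 3511 and 8096 CPM in control libraries. The globin entries hbbe1.1 and hbbe2 of that list had no matching row, so these sums leave them out and may understate red cell transcripts. The 19 rows of the spinal cord and neural list summed to 2443 ± 110 CPM in treated and 2454 ± 122 CPM in control libraries (SD, n = 4 each). Skeletal muscle genes summed to 17136 to 39118 CPM in treated libraries and to 11745 to 26269 CPM in 3 of the controls, and control 1 stood apart with 3180 CPM. In samples of whole tissue or mixed cells, fewer cells of a type and less RNA per cell cannot be told apart.

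**Figure D1:**
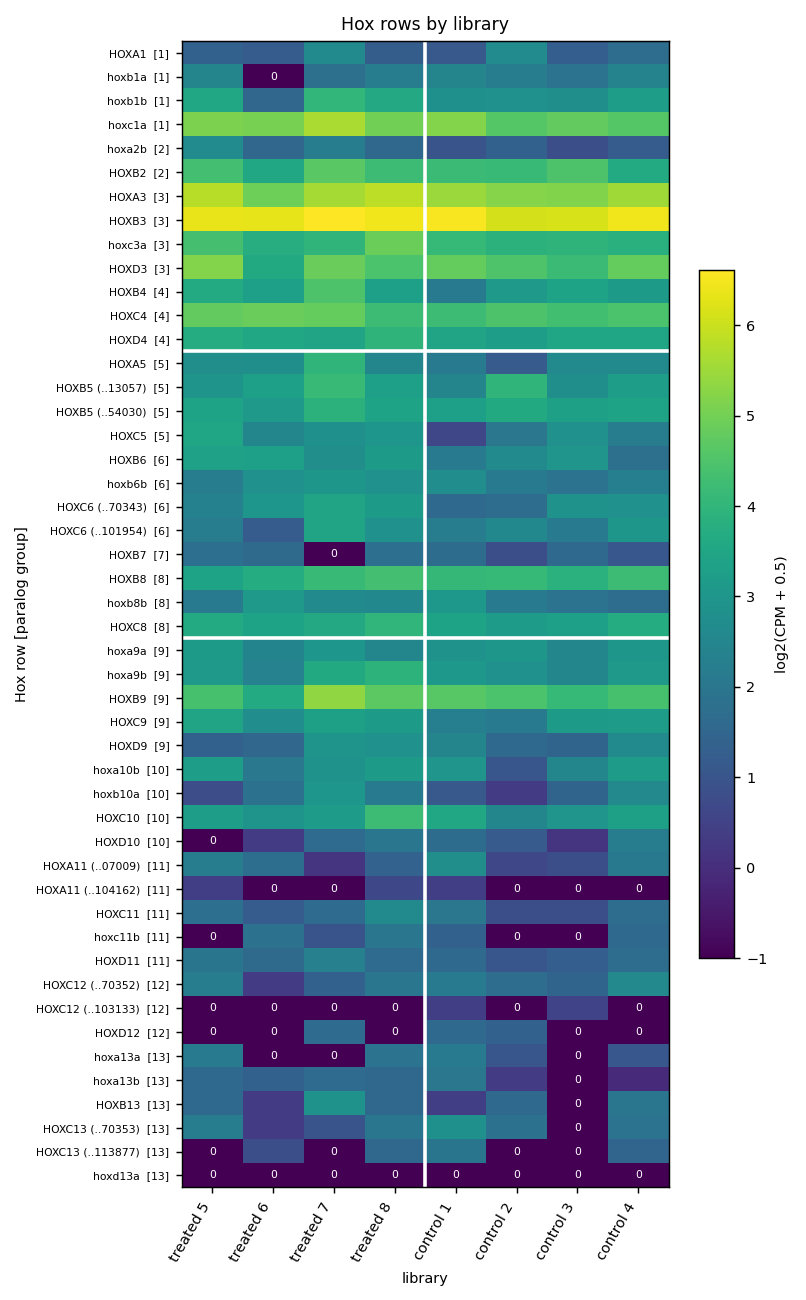
Level of each of the 48 Hox rows (down the page, paralog group in brackets) in each library (treated 5 to 8 left, control 1 to 4 right), as log2 of CPM plus 0.5. White lines separate paralog groups 1 to 4, 5 to 8 and 9 to 13, and a white 0 marks a library with no count. The zeros lie mostly in paralog groups 10 to 13.

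No single Hox row passed the test, and most rows had somewhat higher values in treated libraries. Of the 46 rows, 35 had a log2 fold change above 0 and 11 below it, where 48.2% of all 19151 rows tested lay above 0. The median log2 fold change was 0.28 over the Hox rows and -0.02 over all rows tested. With a mean of at least 5 CPM 25 of 27 Hox rows lay above 0, where 48.1% of all rows at that level did. Under 5 CPM it was 10 of 19, with a median of 0.05 and a median standard error of 0.87. Over all 46 Hox rows, the number above 0 fell to 29 without treated 7, where 48.5% of all rows lay above 0. Without control 1 it was 39, where 49.6% did, and in limma-voom 32, where 48.0% did. 0 of 46 passed an adjusted p of 0.05 in edgeR's quasi-likelihood test, where 0.0157% of all rows did. In DESeq2 0 passed, where 0.0992% of all rows did, and in limma-voom 0, where 0.0157% did. DESeq2 gave no adjusted p to the Hox rows of lower counts, HOXA5, HOXC5, HOXB6 and hoxa2b among them. These rows could not pass there. On simulated counts edgeR called 1 of 49 rows changed 1.5-fold and 12 of 49 changed 2-fold. The lack of Hox rows that passed therefore does not exclude changes of that size. At an unadjusted p of 0.05 there were 2 Hox rows, HOXB4 and HOXA5, both higher, beside 6.86% of all rows. DESeq2 gave 0 rows at that level, beside 6.05% of all rows, and limma-voom 4, beside 7.61%. In 1 row, hoxa2b, every treated library lay above every control, where 1.80% of all rows did so, and in 0 rows did every treated library lie below, where 2.23% of all rows did. The median was 0.45 without treated 6 and 0.15 without treated 8, and the number of rows at an unadjusted p of 0.05 was 1 without control 1, control 2 or treated 7, 5 without control 3, 6 without treated 6 and 3 without treated 8, while the share of all rows at that level stayed between 5.62% and 7.08%.

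Summed over all 48 rows, the Hox level was 505, 383, 600 and 538 CPM in treated 5 to 8, against 466, 389, 379 and 461 CPM in control 1 to 4. The groups overlapped, since treated 6 lay below 3 of the controls. The means were 507 ± 91.0 CPM in treated and 424 ± 45.8 CPM in control libraries (SD, n = 4 each), a ratio of 1.195. Treated 7 was the highest library for 17 of the 46 rows and treated 8 for 11. Treated 6 was the lowest, or tied for it, for 15 rows, control 2 for 13 and control 3 for 11.

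**Figure D2:**
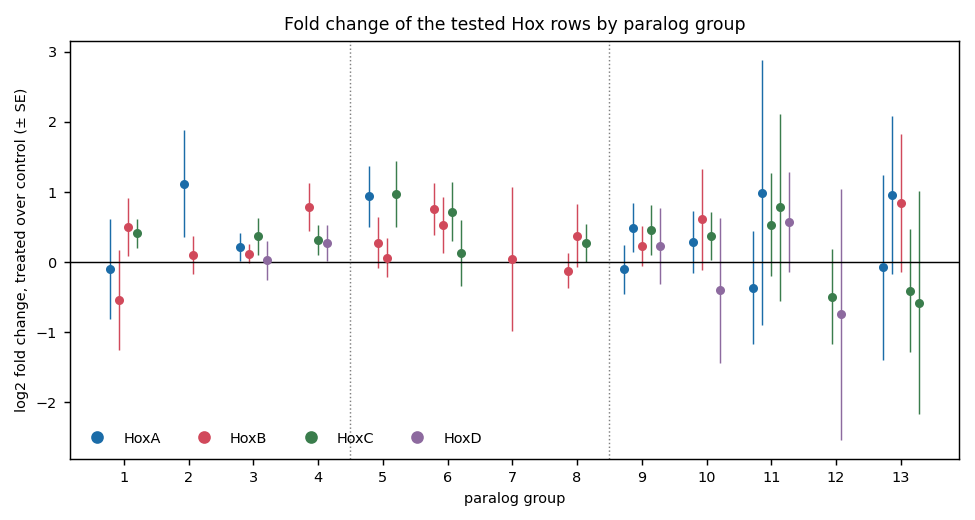
Log2 fold change of treated over control libraries with its standard error for the 46 tested Hox rows, by paralog group along the x axis and by cluster letter in colour; dotted lines separate groups 1 to 4, 5 to 8 and 9 to 13. All 11 rows of paralog groups 4 to 6 lie above 0, and the error bars are widest in groups 11 to 13.

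Among the anterior paralog groups 1 to 4, which pattern the hindbrain and pharyngeal arches, 11 of 13 rows lay higher and 2 lower, with a median log2 fold change of 0.27, which was 0.12 without treated 8 and 0.15 in limma-voom. hoxc1a, of the first paralog group, had 33.9, 32.8, 49.6 and 31.2 CPM in treated 5 to 8, against 36.0, 23.8, 26.8 and 23.9 CPM in control 1 to 4. All treated libraries lay above 3 of the controls and 3 of them below control 1 (log2 fold change 0.41 ± 0.21 SE, edgeR adjusted p = 0.734), and without treated 7 the value was 0.23. hoxb1b, which in zebrafish acts early in hindbrain segmentation, varied widely, with 11.3, 2.32, 16.0 and 11.6 CPM in treated libraries and 6.50, 6.66, 6.39 and 9.21 CPM in controls. Its treated libraries held both the highest and the lowest value of the 8 (0.50 ± 0.41, edgeR adjusted p = 0.953), and the log2 fold change was 0.85 without treated 6, 0.20 without treated 7 and 0.14 in limma-voom. The related hoxb1a, needed for the identity of facial motor neurons, had 0 CPM in treated 6 and 2.97 to 5.03 CPM in the other treated libraries, against 3.19 to 5.03 CPM in controls. A count of 0 there allows up to 0.775 CPM (3 counts), for counting error alone.

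hoxa2b, a selector of the skeleton of the second pharyngeal arch, had 5.87, 2.32, 4.16 and 2.42 CPM in treated 5 to 8, against 1.47, 2.05, 1.28 and 1.84 CPM in control 1 to 4. The groups did not overlap, but the row held 73 counts in all 8 libraries and did not pass (log2 fold change 1.12 ± 0.77 SE, edgeR adjusted p = 0.905). HOXB2 (hoxb2a), which shares the arch role with hoxa2b in zebrafish, had 11.4 to 25.0 CPM in treated and 12.2 to 22.0 CPM in control libraries, with full overlap and a log2 fold change of 0.10 ± 0.26 (SE, edgeR adjusted p = 0.996).

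The 4 rows of the third paralog group had small fold changes. HOXB3 (hoxb3a) had 80.9, 80.6, 97.2 and 86.4 CPM in treated 5 to 8, against 91.6, 68.7, 70.0 and 86.3 CPM in control 1 to 4, so that the groups overlapped (log2 fold change 0.12 ± 0.14 SE, edgeR adjusted p = 0.988). It held 2452 counts over the 8 libraries, and its standard error was correspondingly small. HOXA3 (hoxa3a), which acts in the posterior arches, averaged 47.3 ± 12.4 CPM in treated and 40.5 ± 4.87 CPM in control libraries, and HOXD3 (hoxd3a) 24.5 ± 10.3 and 23.7 ± 4.74 CPM. hoxc3a had 20.1, 12.9, 15.2 and 29.3 CPM in treated libraries and 16.8, 14.3, 15.0 and 13.8 CPM in controls, with a log2 fold change of 0.37 ± 0.26 (SE) that was 0.085 without treated 8. Treated 6 was lowest of all 8 libraries in hoxc3a, HOXD3 and HOXA3, and in HOXB3 it lay inside the control range.

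Paralog groups 4 to 6, which act at the boundary of hindbrain and spinal cord and in the anterior trunk, held the rows of smallest p. All 11 of their rows had a log2 fold change above 0, with a median of 0.53. Without treated 7 this was 8 of 11 rows, with a median of 0.43, and in limma-voom 10 of 11. These groups were singled out after their values were seen, and no test was made of them as a block.

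HOXB4 (hoxb4a), whose mammalian counterpart promotes the expansion of blood stem cells, had 12.2, 9.29, 21.7 and 9.42 CPM in treated 5 to 8, against 3.98, 8.20, 10.2 and 8.29 CPM in control 1 to 4. Control 3 lay above treated 6 and treated 8, so the groups overlapped. The log2 fold change was 0.79 ± 0.35 (SE, edgeR adjusted p = 0.721), and 0.43 without treated 7. HOXC4 (hoxc4a) had 26.8, 28.7, 27.3 and 18.02 CPM in treated and 18.02, 22.0, 19.5 and 21.6 CPM in control libraries, where treated 8 lay among the controls (0.31 ± 0.22, edgeR adjusted p = 0.912). HOXD4 (hoxd4a), a hindbrain gene under retinoic acid control, averaged 12.3 ± 2.02 CPM in treated and 10.2 ± 0.836 CPM in control libraries.

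HOXA5 (hoxa5a) had 6.28, 6.45, 15.2 and 5.11 CPM in treated 5 to 8, against 3.98, 1.79, 5.75 and 5.76 CPM in control 1 to 4. Treated 8 lay below 2 of the controls and treated 7 above all other libraries (log2 fold change 0.94 ± 0.44 SE, edgeR adjusted p = 0.721), and without treated 7 the value was 0.46. HOXC5 (hoxc5a) had 10.9, 5.16, 6.54 and 7.53 CPM in treated and 1.05, 3.59, 6.71 and 4.14 CPM in control libraries. Here control 3 lay inside the treated range and control 1 was lowest (0.97 ± 0.47, edgeR adjusted p = 0.723), and the value was 0.64 without control 1. The rows named HOXB5 had smaller values, 0.28 ± 0.36 for ENSDARG00000013057 and 0.06 ± 0.28 for ENSDARG00000054030 (SE). hoxb5a and hoxb5b overlap hoxb3a and hoxb1b in the RefSeq annotation, and the division of reads between the copies is uncertain. The same limit holds for HOXA5 and HOXC5, since hoxa5a overlaps hoxa3a and hoxc5a overlaps hoxc3a. It also holds for HOXB4 and HOXB6, since hoxb4a and hoxb6a overlap hoxb3a.

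HOXB6 (hoxb6a) had 9.64, 9.29, 6.24 and 8.34 CPM in treated 5 to 8, against 3.98, 5.64, 7.35 and 2.99 CPM in control 1 to 4. 3 treated libraries lay above all controls and treated 7 below control 3 (log2 fold change 0.76 ± 0.37 SE, edgeR adjusted p = 0.721). HOXC6 with the identifier ENSDARG00000070343 had 4.61 to 10.4 CPM in treated and 2.51 to 7.03 CPM in control libraries (0.72 ± 0.42, edgeR adjusted p = 0.820), and the other HOXC6 row 1.81 to 10.4 and 3.83 to 7.60 CPM (0.13 ± 0.47). Summed over the 4 rows of the sixth paralog group, the level was 22.6, 25.3, 34.8 and 30.1 CPM in treated libraries and 16.8, 17.7, 21.4 and 21.6 CPM in controls, a ratio of 1.46 without overlap. The sum over the fourth paralog group did not overlap either, with 42.5 to 59.4 CPM in treated and 32.5 to 40.8 CPM in control libraries. Scaled by the total count alone, both sums overlapped by a narrow margin: the highest control had 22.6 CPM and the lowest treated library 21.6 CPM in the sixth group.

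**Figure D3:**
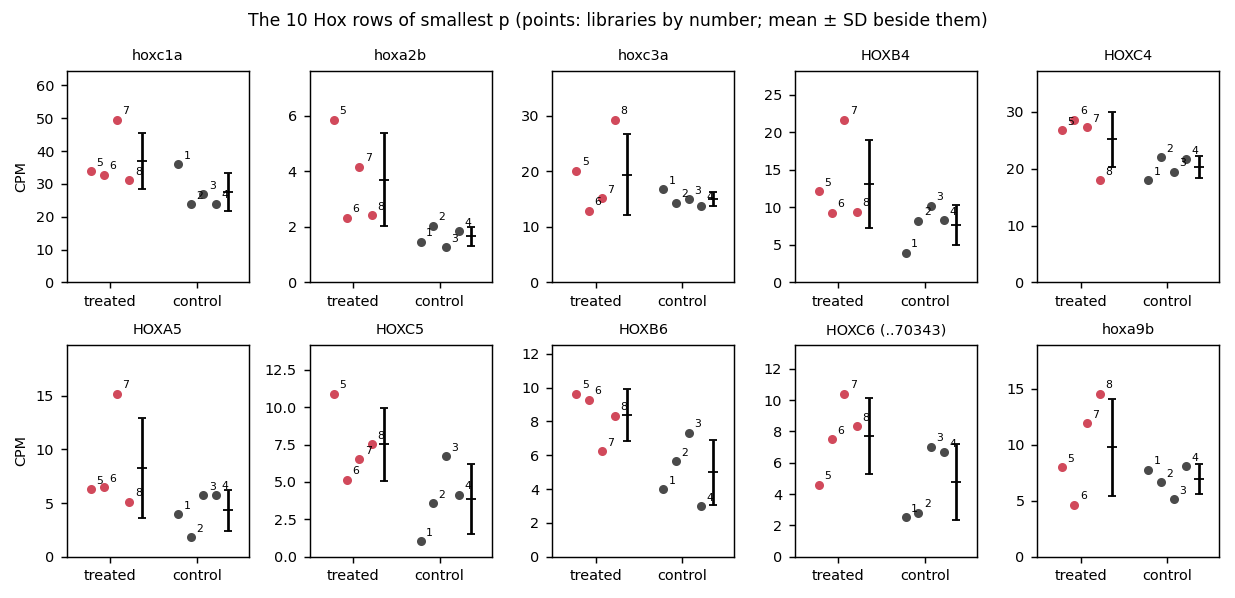
CPM per library of the 10 Hox rows of smallest p, treated left and control right, each point labelled with its library number, with the mean and SD of each group (n = 4) beside the points. hoxa2b is the row without overlap between the groups; in HOXB4 and HOXA5 the highest point is treated 7, at 21.7 and 15.2 CPM.

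The seventh and eighth paralog groups, active in the trunk, held 4 rows, of which 3 had a log2 fold change above 0. HOXB7 (hoxb7a) had 2.93, 2.58, 0 and 2.96 CPM in treated 5 to 8, against 2.72, 1.28, 2.56 and 1.61 CPM in control 1 to 4. Its log2 fold change was 0.05 ± 1.02 (SE, edgeR adjusted p = 0.999), a row of 61 counts on which these libraries give no direction. HOXB8 (hoxb8a) had 10.1, 12.7, 16.9 and 19.6 CPM in treated and 16.1, 16.7, 14.1 and 17.96 CPM in control libraries, with the controls inside the treated range. It is the 1 row of paralog groups 5 to 8 with a value below 0 (-0.12 ± 0.25, edgeR adjusted p = 0.995). HOXC8 (hoxc8a) averaged 12.4 ± 2.34 CPM in treated and 10.2 ± 1.75 CPM in control libraries, with a log2 fold change of 0.28 ± 0.27 (SE). hoxb8b averaged 5.70 ± 1.74 CPM in treated and 4.39 ± 2.29 CPM in control libraries (0.37 ± 0.45), and both rows overlapped between the groups.

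Posterior paralog groups 9 to 13, which pattern the posterior trunk, tail and fins, had 13 of 21 rows higher and 8 lower, with a median log2 fold change of 0.29 and a median standard error of 0.74, against 0.26 in groups 1 to 4. This median was 0.51 without treated 6, 0.12 without treated 7, 0.13 without treated 8, 0.44 without control 1 and 0.48 without control 4. HOXB9 (hoxb9a) had 20.5, 12.1, 39.8 and 25.3 CPM in treated 5 to 8, against 24.5, 21.3, 16.6 and 20.5 CPM in control 1 to 4. Treated libraries held the highest and the lowest value (0.23 ± 0.28 SE, edgeR adjusted p = 0.988), and without treated 7 the sign turned, to -0.11. hoxa9b had 7.96, 4.65, 11.9 and 14.5 CPM in treated and 7.75, 6.66, 5.11 and 8.06 CPM in control libraries (0.49 ± 0.35, edgeR adjusted p = 0.926), and without treated 8 the value was 0.23. hoxa9a, with hoxb7a a gene of blood formation, averaged 6.46 ± 1.72 CPM in treated and 6.83 ± 1.19 CPM in control libraries. HOXC10 (hoxc10a) stood out in treated 8, with 18.02 CPM beside 7.23 to 9.22 CPM in the other treated libraries and 5.12 to 11.3 CPM in controls, and its log2 fold change of 0.37 ± 0.34 was -0.0095 without treated 8.

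Paralog groups 11 to 13, the genes of the tail and fin tip, were near the limit of detection and differed more between libraries of a group than between the groups. Of their 14 rows, 10 had a library at 0, and 12 were tested, 6 higher and 6 lower. hoxd13a had 0 counts in all 8 libraries, which allows 0.629 to 1.26 CPM per library (3 counts), for counting error alone. HOXC12 with the identifier ENSDARG00000103133 held 7 counts in all. Summed over the 14 rows, the level was 28.5, 16.0, 25.0 and 32.6 CPM in treated 5 to 8, against 40.9, 16.6, 7.67 and 28.3 CPM in control 1 to 4. Control 1 and control 3 were the highest and the lowest library. Control 1 had the lowest muscle sum of the 8 libraries, 3180 CPM, and control 3 the next lowest, 11745 CPM, and the part of tissue content in these levels was not tested.

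HOXA11 (ENSDARG00000007009), of a group that acts in fins and limbs, had 4.19, 2.84, 0.594 and 2.15 CPM in treated libraries, against 6.29, 1.02, 1.28 and 3.68 CPM in controls. HOXC12 (ENSDARG00000070352) had 4.19, 0.775, 2.08 and 3.50 CPM in treated and 3.98, 2.82, 2.24 and 5.52 CPM in control libraries. HOXC13 (ENSDARG00000070353) had 4.19, 0.775, 1.49 and 3.50 CPM in treated and 6.50, 3.07, 0 and 3.22 CPM in control libraries. In HOXC13 the treated values lay inside the control range, and in HOXA11 and HOXC12 the ranges overlapped in part, with treated 6 and treated 7 below every control in HOXC12. The edgeR adjusted p was 0.995 in each. hoxa13b, needed with hoxa13a for the fin skeleton, lay between 2.07 and 2.67 CPM in treated libraries and between 0 and 3.56 CPM in controls. All 6 rows of paralog group 13 were at 0 in control 3.

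**Figure D4:**
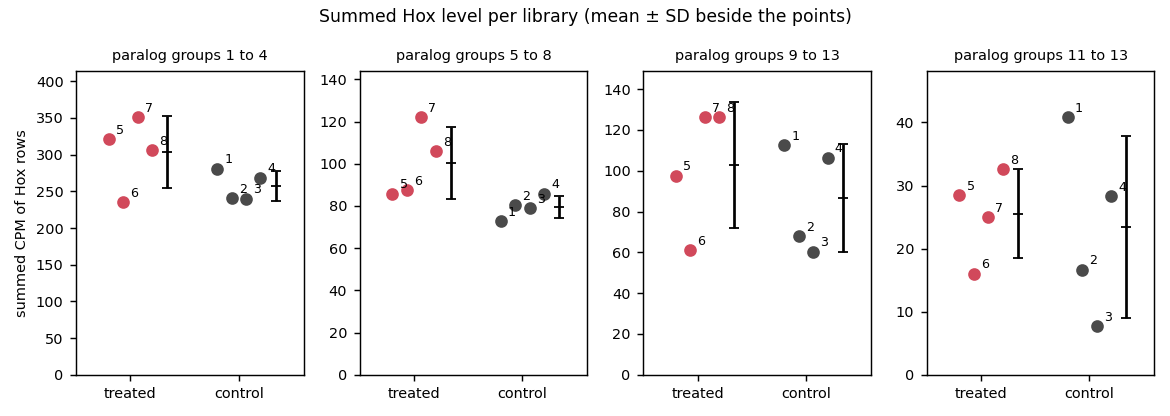
Summed CPM of Hox rows per library for paralog groups 1 to 4, 5 to 8, 9 to 13 and, within the last, 11 to 13, treated left and control right, points labelled by library number, with mean and SD (n = 4) beside them. In groups 5 to 8 the treated libraries reach from 85.9 to 122 CPM and the controls from 72.7 to 85.9 CPM; in groups 11 to 13 control 1 and control 3 are the extremes.

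The balance of anterior and posterior Hox counts did not separate the groups. Paralog groups 9 to 13 took 19.3% (95% Wilson interval 17.2 to 21.7), 15.9% (14.1 to 17.8), 21.1% (19.3 to 22.9) and 23.4% (21.6 to 25.4) of the Hox counts in treated 5 to 8. In control 1 to 4 they took 24.1% (22.4 to 26.0), 17.4% (15.6 to 19.4), 15.9% (13.9 to 18.1) and 23.1% (21.3 to 25.0). These intervals cover counting error alone. The lowest share was 15.9% in both groups, and the means were 19.9% ± 3.18 in treated and 20.1% ± 4.08 in control libraries (SD, n = 4 each). Anterior groups 1 to 4 took 60.1% ± 2.99 and central groups 5 to 8 took 20.0% ± 2.39 in treated libraries, against 60.9% ± 2.16 and 18.9% ± 2.43 in control libraries.

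By cluster, the 8 rows placed in the hoxca cluster (hoxc1a, hoxc3a, HOXC4, HOXC5, HOXC8, HOXC9, HOXC10 and HOXC11) each had a log2 fold change above 0, from 0.28 to 0.97 with a median of 0.39. Their sum was 127, 105, 131 and 134 CPM in treated 5 to 8, against 101, 82.7, 94.2 and 96.9 CPM in control 1 to 4, so the groups did not overlap. The HOXC6, HOXC12 and HOXC13 rows are not among them, since their a and b copies could not be told apart: both HOXC6 rows lay higher, and the tested HOXC12 row (-0.49 ± 0.68 SE) and both HOXC13 rows (-0.40 ± 0.87 and -0.58 ± 1.59) lay lower. Over all HOXC rows 11 of 14 lay higher. The hoxca ratio was 1.32, and it ran from 1.27 to 1.39 over 12 other scalings, filters and left-out libraries. The groups did not overlap in any of these. Leaving a library out can only narrow a group's range, apart from slight rescaling, so those settings could hardly have shown an overlap. 7 of the 8 rows lay above 0 without treated 8. In the hoxba cluster 8 of 10 rows lay higher (median 0.18), in hoxab 4 of 4, in hoxbb 3 of 3, in hoxda 4 of 6 and in hoxaa 2 of 5 (median -0.07). Of all rows tested, 48.2% lay higher. cbx5, the gene beside the hoxca cluster in the RefSeq annotation, stood at 156 ± 7.02 CPM in treated and 154 ± 11.8 CPM in control libraries. The hoxca cluster was singled out after its values were seen, and in the RefSeq annotation hoxc3a overlaps the genes of the HOXC4, HOXC5, HOXC8 and HOXC9 rows.

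Genes that act with or upstream of Hox were described from 5 lists, in which 0 rows passed an adjusted p of 0.05 in edgeR. The numbers of rows higher and lower are read beside 48.2% of all rows tested with a log2 fold change above 0. The cofactor list (PBX, MEIS and PKNOX genes) had 5 of 14 rows higher and 9 lower, with a median log2 fold change of -0.12 and a sum of 1486 ± 139 CPM in treated and 1546 ± 76.9 CPM in control libraries. At an unadjusted p of 0.05 it had 0 rows higher and 1 lower, where 3.18% of all rows tested were higher and 3.68% lower, the shares against which the counts of the next 3 lists are read too. meis2b, of the MEIS family that binds DNA beside Hox proteins, had 132, 141, 141 and 123 CPM in treated 5 to 8, against 176, 175, 130 and 188 CPM in control 1 to 4. Control 3 lay inside the treated range (-0.32 ± 0.13 SE, edgeR adjusted p = 0.701). PBX3 averaged 58.5 ± 17.9 CPM in treated and 77.9 ± 21.7 CPM in control libraries (edgeR adjusted p = 0.801).

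In the retinoic acid list 16 of 23 rows lay higher and 7 lower, with a median of 0.11, and 2 rows were higher and 0 lower at an unadjusted p of 0.05. CRABP2 (ENSDARG00000073978), which carries retinoic acid in the cell, had 26.4, 34.9, 31.2 and 33.4 CPM in treated 5 to 8, against 25.4, 20.5, 19.8 and 20.3 CPM in control 1 to 4. Every treated library lay above every control (0.55 ± 0.20 SE, edgeR adjusted p = 0.645), where 1.80% of all rows did so. A row picked for its small p is more likely to lie apart in this way. The other row named CRABP2 had 0.05 ± 0.28. CYP26B1, which breaks down retinoic acid, had 44.0, 42.3, 53.8 and 30.7 CPM in treated and 42.3, 24.8, 27.2 and 30.2 CPM in control libraries (0.45 ± 0.21, edgeR adjusted p = 0.721). ALDH1A2, which makes retinoic acid in the trunk, averaged 17.8 ± 3.07 CPM in treated and 17.3 ± 4.03 CPM in control libraries and was named outside the rule.

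Caudal and tailbud genes had 11 of 20 rows higher and 9 lower, with a median of 0.02, and 1 row in each direction at an unadjusted p of 0.05. EVX2, the even-skipped homologue beside hoxd13a in the RefSeq annotation and a gene of spinal interneurons in zebrafish, had 14.7, 16.0, 14.9 and 11.0 CPM in treated 5 to 8, against 23.1, 20.8, 17.9 and 23.9 CPM in control 1 to 4. Every treated library lay below every control (-0.60 ± 0.23 SE, edgeR adjusted p = 0.677), where 2.23% of all rows did so. EVX2 too was picked for its small p, which makes such a separation more likely. WNT3A, a signal of the tailbud and dorsal spinal cord, had 7.54, 1.29, 10.1 and 5.38 CPM in treated and 2.51, 2.31, 3.19 and 2.07 CPM in control libraries, with treated 6 below all controls (1.25 ± 0.57, edgeR adjusted p = 0.721).

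Forebrain, midbrain and hindbrain segment genes had 11 of 29 rows higher and 18 lower, with a median of -0.09, and 1 row was higher and 4 lower at an unadjusted p of 0.05. GBX2, which positions the midbrain-hindbrain boundary, had 5.45, 10.3, 1.78 and 4.84 CPM in treated 5 to 8, against 13.6, 14.6, 10.9 and 10.4 CPM in control 1 to 4. The groups did not overlap, though treated 6 nearly met control 4 (-1.12 ± 0.38 SE, edgeR adjusted p = 0.637). Of all rows tested, 2.23% lay lower without overlap, but GBX2 was picked for its small p, which makes such a separation more likely. DMBX1 (ENSDARG00000009922), a midbrain homeobox gene, had 9.22 to 12.7 CPM in treated and 10.2 to 34.2 CPM in control libraries. Polycomb and trithorax genes had 23 of 39 rows higher and 16 lower, with a median of 0.03 and sums of 4806 ± 294 CPM in treated and 4777 ± 85.4 CPM in control libraries. JARID2 (ENSDARG00000062268), a partner of Polycomb repressive complexes, averaged 201 ± 31.5 CPM in treated and 164 ± 15.1 CPM in control libraries, and phc2b, a Polycomb subunit, 90.1 ± 31.2 and 127 ± 20.4 CPM, with edgeR adjusted p of 0.710 and 0.721.

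**Figure D5:**
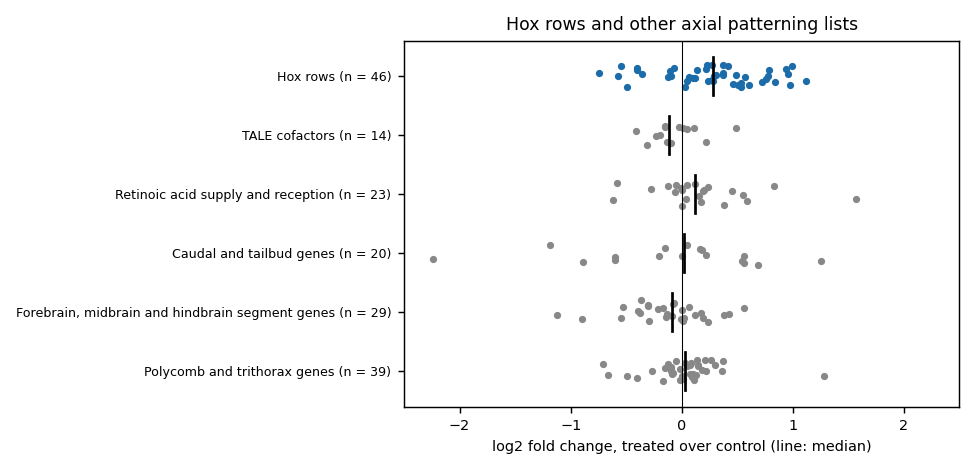
Log2 fold change of treated over control libraries for each tested row of the Hox set and of 5 axial patterning lists, with a vertical line at the median of each; 3 rows of the caudal and tailbud list with larger absolute values lie outside the axis. The Hox median is 0.28, and the medians of the other lists lie between -0.12 and 0.11.

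Markers of other tissues were counted by direction in the same way, beside 48.2% of all rows tested with a log2 fold change above 0. The Hox rows lay higher in treated libraries in 35 of 46 rows, skeletal muscle in 23 of 24 (median 0.90), notochord and cartilage in 12 of 12 (0.25), lens in 8 of 8 (1.31), endothelium in 12 of 14 (0.74) and neural crest and pigment cells in 8 of 13 (0.89). Spinal cord and neural genes lay higher in 6 of 19 (-0.04), pronephros and lateral mesoderm in 7 of 16 (-0.19), epidermis in 6 of 12 (-0.04) and red cell genes in 0 of 17 (-0.25). Muscle genes summed to between 17136 and 39118 CPM in treated and between 3180 and 26269 CPM in control libraries, and endothelial genes to between 172 and 273 CPM in treated and between 109 and 163 CPM in control libraries. In the muscle list 3 of the rows named TNNI2 were at 0 in all libraries, in the notochord list noto and in the lens list lim2.1. Of all these rows stab2 and MRC1, both endothelial, passed an adjusted p of 0.05 in edgeR, where 3 of all 19151 rows tested (0.0157%) did. The part of these tissues in the Hox values was not tested.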

How the data were processed

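The deposited values are raw counts, whole numbers per gene, in a single table that covers the 8 libraries. Per the labels' protocols, total RNA was made into stranded libraries with a low-input kit for mammalian RNA and read as paired 100 bp reads. The submitters' processing notes name the build GRCz11, HISAT2 2.1.0, StringTie 1.3.3b and, among other tools, Trim Galore 0.5.0, with no role for each. The sources used here do not give the annotation release, the strand setting or the handling of overlapping genes. 0 sample columns were left out.

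Symbols came from the supplied name table, which named 28975 of 32020 rows. Rows with at least 10 counts over the 8 libraries (19151) were scaled by TMM and compared, treated over control, with edgeR 4.0.16 (R 4.3.3, robust quasi-likelihood F-test, no covariate, Benjamini-Hochberg over all 19151 rows). Standard errors were derived from the fold change and its F. Alternatives used limma 3.58.1, DESeq2 1.42.0, other scalings and filters, and each library left out in turn. Sums and shares used Python 3.11.15. The fits were checked on simulated counts of 19151 rows. For changes by a factor of 1.5, 2, 3 and 5, edgeR called 1, 12, 14 and 26 of 49 rows each. It also called 4 of 18293 unchanged rows. At a factor of 2, DESeq2 called 13 of 49 rows and limma-voom 11. Most changes of 1.5-fold or 2-fold thus went uncalled. No 2 libraries agreed within sampling noise (chi-square per degree of freedom 6.69 to 20.9).

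Named Hox rows were the 10 of smallest p, the row of highest mean CPM in each paralog group, and the 3 rows of at least 5 CPM with the largest ratio between libraries; other Hox rows given with values, such as hoxb1a, HOXA3 and hoxa9a, were named outside this rule, after their values were seen. In each axial list the 2 rows of smallest p were named. The 14 gene lists had 262 entries: 176 matched a symbol directly, and 10 had no match. The other 76 matched once an a or b ending, a number after a point, or both were dropped. A single entry could match several rows, as tnni2a.4 of the muscle list did with the rows named TNNI2. The Hox members and all lists were chosen with earlier results of these data known.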

Additional observations from a re-analysis of the deposited data

Results flagged for a closer look

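In 5 of 70 groups of 4 libraries 1 library stood far from the other 3 by Dixon's criterion, and chance gives about 1 in 20. In treated 7, hoxc1a had 49.6 CPM beside 31.2 to 33.9 CPM in the other treated libraries, HOXA5 had 15.2 CPM beside 5.11 to 6.45 CPM, and HOXB7 had 0 CPM beside 2.58 to 2.96 CPM. In control 4, hoxb1b had 9.21 CPM beside 6.39 to 6.66 CPM in the other controls. In control 1, CRABP2 (ENSDARG00000073978) had 25.4 CPM beside 19.8 to 20.5 CPM in the other controls.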

How the results depend on the processing

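0 Hox rows passed an adjusted p of 0.05 in edgeR, DESeq2, limma-voom, the other scalings and filters, and without each library. In DESeq2 the Hox rows of lower counts got no adjusted p and could not pass. The number of Hox rows at an unadjusted p of 0.05, 2 as reported, was 1 with scaling to the total count, 0 in DESeq2 and 4 in limma-voom, and 1 to 6 without single libraries. The number without overlap between groups, 1 as reported, was 0 with filterByExpr, which drops hoxa2b, and 1 to 4 without single libraries. Groups with a library fewer separate more easily, and the share of all rows without overlap was not computed for those settings. The median log2 fold change of the Hox rows was 0.26 to 0.29 under other scalings, filters and tools and 0.15 to 0.45 without single libraries, and that of all rows tested stayed between -0.03 and -0.004. The difference in summed CPM, 82.7, was 77.3 to 84.5 and 51.9 to 123.9.

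Signs turned in single rows, none of which passed: HOXB7 was -0.57 in limma-voom and -0.16 to 0.46 without single libraries. Without single libraries HOXA11 (ENSDARG00000007009) ran from -0.73 to 0.26, HOXB2 from -0.081 to 0.28, HOXB5 (ENSDARG00000054030) from -0.11 to 0.18, HOXB8 from -0.29 to 0.011, HOXB9 from -0.11 to 0.46, HOXC10 from -0.0095 to 0.56 and HOXC13 (ENSDARG00000070353) from -0.80 to 0.20; the cause was not tested. The number of rows called in the whole table was 3 as reported, 19 in DESeq2, 0 with filterByExpr and 0 to 2 without single libraries. No paired analysis was possible because the treated and control libraries share no replicate number. The order of Hox rows by level per transcript length was not run, since no transcript lengths were used here. With 2502636 to 4794081 counts per library, rows of paralog groups 11 to 13 held at most 94 counts in all, which limits what can be seen there.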

Other observations

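2 tailbud genes of the caudal list, chosen after their values were seen, had counts in 2 control libraries alone. The row named TBXT (ENSDARG00000039806), matched to tbxtb, 1 of 2 zebrafish copies of Brachyury, a gene of notochord and tailbud, had 1.47 CPM in control 1 and 1.84 CPM in control 4, and cdx4, a caudal factor upstream of Hox genes, 1.47 and 1.61 CPM in the same libraries. Both were at 0 in treated 5 to 8 and in control 2 and control 3. There 0 counts allow 0.769 to 1.26 CPM, for counting error alone. The other copy, tbxta, had counts in every library and averaged 11.5 ± 6.19 CPM in treated and 11.2 ± 4.13 CPM in control libraries (SD, n = 4 each). Control 1 and control 4 were also the control libraries with the higher sums over Hox paralog groups 9 to 13, 113 and 106 CPM, against 67.9 and 60.4 CPM in control 2 and control 3. The treated libraries had sums of 60.9 to 126 CPM without a count in the TBXT or cdx4 rows.

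Small counts are rare in the table. Among the 384 values of the Hox rows, 40 were 0, 0 were 1, 4 were 2 and 8 were 3. Over all rows 113279 of 256160 values were 0, 2949 were 1 and 3773 were 2. The sources used here do not give the counting steps. The limits given above for counts of 0 assume that single reads were counted, which these sources do not show.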
